A study of Mus musculus with 24 samples.

Results

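The comparison covered microglia of transgenic mice at 9 months against 4 months of age: 3 libraries (tg 9 months, replicates 1, 2 and 3) against 4 (tg 4 months, replicates 1 to 4), 7 of the 24 libraries of the series. They were chosen by their labels, and the fourth library of tg at 9 months was left out because it held 6325 counts, under the limit of 1000000. All were bulk RNA from hippocampal microglia of male mice that carry APPswe/PSEN1dE9 (APP/PS1), sorted as live cells high for CD11b, intermediate for CD45 and negative for CD49d. The controls (wt) at 4 and 9 months, 4 libraries each, and tg at 6 months, 4 libraries, are used only where named. A wt library at 9 months is labelled replicate 2_4, and the meaning of that name is not given. The transgenes are driven, as background, by a prion protein promoter that is active mainly in neurons, so the microglia are the cells that meet the amyloid rather than its main source. No label states that replicates came from separate animals; the p-values below therefore rest on the variation among these libraries, which may be technical.

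Microglia are the resident macrophages of the brain. In healthy tissue they hold a surveying state with high P2ry12, Tmem119 and Cx3cr1, and around amyloid plaques they are known to take on a disease-associated state, described in 2 stages: a first with Apoe, Tyrobp, B2m and Fth1, and a second, which depends on the receptor Trem2, with Cst7, Lpl, Clec7a, Itgax and Axl. The 7 libraries held 9322896 to 12358124 counts in 15804 to 18816 genes, and 13453 genes reached 1 CPM (counts scaled to the library total) in at least 3 of them. The cells carried the markers of their label: all 7 microglial markers were above the floor of 3 counts in each library, and their summed level was 74204 to 85231 CPM at 4 months and 50999 to 64611 CPM at 9 months. Log2 CPM correlated at 0.918 to 0.980 among the 4-month libraries, 0.898 to 0.946 among the 9-month libraries and 0.877 to 0.965 between the ages.

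In all, 20 genes were higher at 9 months by edgeR's quasi-likelihood test at an adjusted p under 0.05, which is 0.149% of the genes tested, and 0 genes (0%) were lower. At an unadjusted p under 0.05 there were 675 higher genes (5.02%) and 598 lower ones (4.45%). DESeq2 on the same libraries called 181 higher (1.35%) and 111 lower (0.825%). The 20 genes were Cst7, Lpl, Clec7a, Apoe, Spp1, Igf1, Capg, Anxa2, Ank, Axl, Lgals3bp, Cxcr2, Chst2, Itgax, Lyz2, Gm26902, Retnlg, Ddx60, Macf1 and Ramp1, and 11 of them are members of the disease-associated lists. Cst7, Lpl and Clec7a passed in all 19 alternative analyses, and Apoe, Igf1 and Capg in 17. The fits that left out 1 library each called 7 to 15 higher genes. Chst2, Macf1 and Ramp1 passed in 0 of those 7 fits, and Axl, Itgax, Ddx60 and Lyz2 in 1. Cxcr2, Retnlg and Gm26902 were under 1 CPM in each 4-month library, so they reached the filter through the 9-month libraries alone and had to differ; fits without a 9-month library did not test them.

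**Figure D1:**
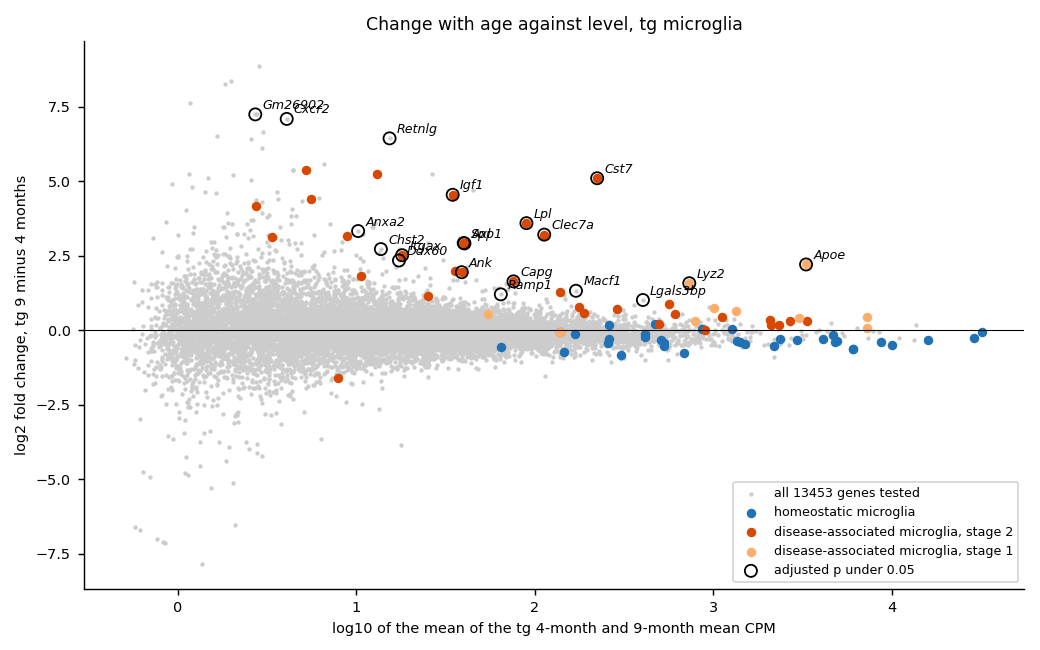
Log2 fold change (9 minus 4 months) of each of the 13453 genes tested against the log10 of its mean CPM in tg microglia. Rings mark the 20 genes that passed the test, all above 0, and colours mark the homeostatic and disease-associated lists.

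Cst7, which encodes cystatin F, an inhibitor of lysosomal cysteine proteases, was 12.5, 10.7, 12.3 and 15.3 CPM at 4 months and 405, 391 and 504 CPM at 9 months. The log2 fold change was 5.10 (SE 0.18, edgeR adjusted p = 3.33e-06), 34.1-fold between the means. The lowest 9-month library was above the highest 4-month library by a wide margin, and the libraries at 6 months (129 to 196 CPM) lay between them. Lpl, the lipase that releases fatty acids from lipoproteins, was 12.6 to 15.2 CPM at 4 months and 180, 168 and 148 CPM at 9 months (log2 3.60, SE 0.17, adjusted p = 1.68e-05). Clec7a, the beta-glucan receptor Dectin-1, was 17.7 to 24.7 CPM and then 210, 199 and 201 CPM (log2 3.21, SE 0.17, adjusted p = 2.93e-05). For these 3 genes neither the 4-month nor the 9-month libraries overlapped those at 6 months.

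Apoe, the main apolipoprotein of the brain, was the most abundant gene to rise: 1477, 953, 903 and 1386 CPM at 4 months against 5468, 4981 and 5810 CPM at 9 months (log2 2.21, SE 0.19, edgeR adjusted p = 0.00223). Spp1, the secreted matrix protein osteopontin, was 13.4, 7.46, 8.79 and 7.52 CPM and then 87.6, 66.7 and 57.2 CPM (log2 2.93, SE 0.28, adjusted p = 0.00526). Igf1, a growth factor, was 1.42 to 4.88 CPM and then 82.8, 71.7 and 44.6 CPM (log2 4.55, SE 0.44, adjusted p = 0.00526). The groups did not overlap for these genes, and the 9-month spread was widest for Igf1, with replicate 3 the lowest. Apoe did not pass when the low-count library was kept (edgeR adjusted p = 0.404). That library held 10 Apoe counts, 1581 CPM (exact 95% binomial interval 758 to 2906, counting error only).

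The receptor tyrosine kinase Axl, which takes part in the uptake of dying cells, was 8.63, 7.76, 15.7 and 5.79 CPM at 4 months and 65.8, 62.8 and 84.7 CPM at 9 months (log2 2.92, SE 0.34, edgeR adjusted p = 0.0128). Itgax, the integrin subunit CD11c, was 4.06 to 8.26 CPM and then 28.9, 26.2 and 37.0 CPM (log2 2.52, adjusted p = 0.0338). Ank, a pyrophosphate transporter, was 13 to 18.7 CPM and then 51.2, 70.6 and 63.4 CPM (log2 1.95, adjusted p = 0.0128), and the actin-capping protein Capg was 32.6 to 40.5 CPM and then 134, 104 and 106 CPM (log2 1.64, adjusted p = 0.00812). Lysozyme, Lyz2, which is on the first-stage list with Apoe, was 431, 365, 221 and 456 CPM at 4 months and 1082, 1115 and 1089 CPM at 9 months (log2 1.58, adjusted p = 0.0368). The 9-month libraries were tightly grouped for Lyz2, while replicate 3 was the lowest at 4 months.

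**Figure D2:**
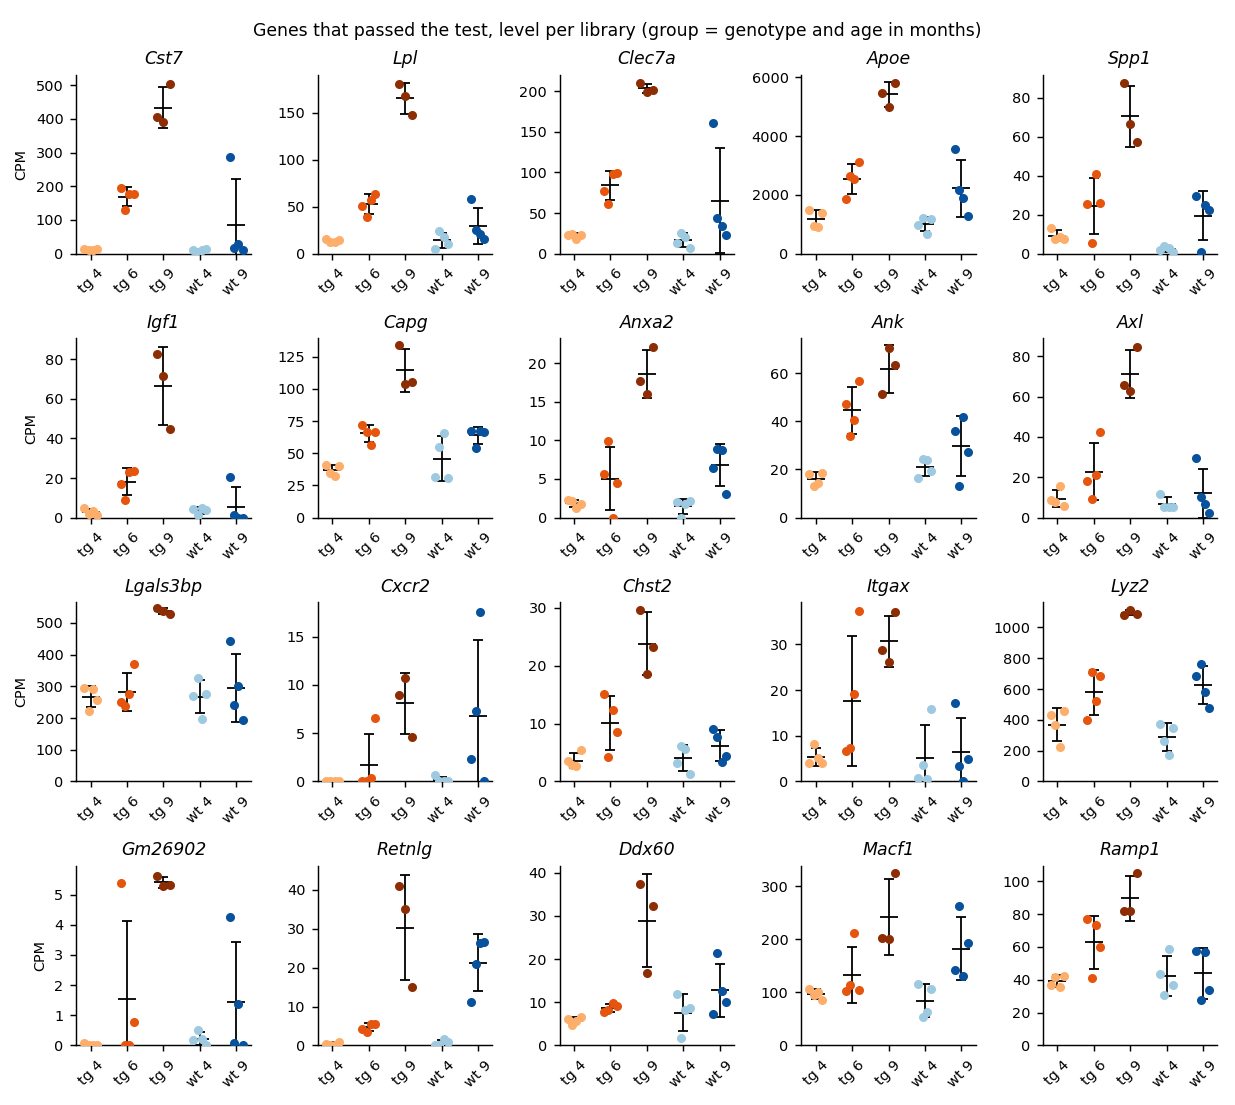
Level in CPM of the 20 genes that passed the test in each library, by genotype and age in months. Points are libraries, and bars show the mean and SD. In each panel the 3 tg libraries at 9 months lie above the 4 at 4 months.

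Outside the disease-associated lists, the annexin Anxa2 was 1.30 to 2.25 CPM at 4 months and 17.7, 16 and 22.1 CPM at 9 months (log2 3.33, SE 0.37, edgeR adjusted p = 0.00974). Lgals3bp, a secreted galectin-binding glycoprotein, was 224 to 296 CPM and then 547, 537 and 528 CPM (log2 1.02, SE 0.13, adjusted p = 0.0177). Chst2, a sulfotransferase of glycan chains, was 2.70 to 5.49 CPM and then 29.5, 18.6 and 23.2 CPM (log2 2.73, adjusted p = 0.0333). Ddx60, an interferon-induced helicase, was 4.74 to 6.5 CPM and then 37.4, 16.8 and 32.4 CPM (log2 2.34, adjusted p = 0.0434). Macf1, which links actin and microtubules, was 86.4 to 107 CPM and then 202, 200 and 324 CPM, and Ramp1, a partner of the receptor for the peptide CGRP, was 35.4 to 42.3 CPM and then 81.7, 82.0 and 105 CPM (adjusted p = 0.0434 for both). These genes differed in steadiness: Anxa2 passed in 12 of the 19 alternatives, and Macf1 and Ramp1 in 7.

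Cxcr2, a chemokine receptor of neutrophils, Retnlg, a secreted neutrophil protein, and Gm26902 were at or near 0 at 4 months, so their fitted folds depend on the prior count, and they entered the test through the 9-month libraries alone; neither folds nor p-values are given. Cxcr2 had 2 counts in the 4 libraries at 4 months together and was 8.99, 10.7 and 4.55 CPM at 9 months. Retnlg had 14 counts at 4 months and was 40.9, 35 and 15 CPM at 9 months. Gm26902, an unnamed gene model, had 1 count at 4 months and was 5.61, 5.27 and 5.33 CPM at 9 months.

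At 6 months the mean of tg lay between those at 4 and 9 months for all 20 genes, which were chosen for the difference between the outer ages. In 9 of them (Retnlg, Cst7, Igf1, Lpl, Clec7a, Ddx60, Apoe, Ank and Capg) each 6-month library was above each 4-month library, and in 15 each 9-month library was above each 6-month library. Itgax spread widely at 6 months, with 6.78, 7.37, 19.2 and 37.3 CPM, and overlapped the level at 9 months.

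To show the sequence context of the genes that rose together, the 250 bases before the transcription start were taken from the RefSeq promoter table, build GRCm38.p6, an older build than the GRCm39 named in the submitters' processing notes; 18 of the 20 genes had an entry. On both strands 8 motifs were searched, and all are given here: the ETS core GGAAGT, the PU.1 form GAGGAAGT, which contains it, the AP-1 site TGANTCA, the interferon-stimulated response element (ISRE: GAAA, any 2 bases, GAAA), the E-box CACGTG, the TATA box TATAAA, the direct repeat of AGGTCA with any 4 bases between, and a variant of the lysosomal CLEAR element, given by name. The search was made after the results were known, and the 4 promoters shown were picked after their matches were seen. GGAAGT stood before 7 of the 18 genes (Cst7, Spp1, Capg, Cxcr2, Itgax, Lyz2 and Macf1) and before 22.2% of the 27025 genes in the table. TGANTCA stood before 3 (Igf1, Anxa2 and Itgax; 7.82% of all), TATAAA before 3 (Apoe, Spp1 and Anxa2; 14.3%), the ISRE before 2 (Spp1 and Ddx60; 3.46%) and GAGGAAGT before 1 (Spp1; 2.79%). CACGTG (6.86% of all), the direct repeat (0.0148%) and the CLEAR variant (0.152%) stood before 0 of them. These are matches of letters, with no test. Of the 18 genes, Cxcr2 and Retnlg reached the filter through the 9-month libraries alone, so the counts are a description only. Capitals mark a match to any of the 8 motifs on either strand.
Cst7, chr2:150570165-150570414, + strand: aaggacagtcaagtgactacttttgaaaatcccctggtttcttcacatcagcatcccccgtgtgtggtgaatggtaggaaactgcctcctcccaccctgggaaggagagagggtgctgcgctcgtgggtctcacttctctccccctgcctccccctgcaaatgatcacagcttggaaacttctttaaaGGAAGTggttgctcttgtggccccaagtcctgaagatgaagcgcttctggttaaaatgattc
Itgax, chr7:128129300-128129549, + strand: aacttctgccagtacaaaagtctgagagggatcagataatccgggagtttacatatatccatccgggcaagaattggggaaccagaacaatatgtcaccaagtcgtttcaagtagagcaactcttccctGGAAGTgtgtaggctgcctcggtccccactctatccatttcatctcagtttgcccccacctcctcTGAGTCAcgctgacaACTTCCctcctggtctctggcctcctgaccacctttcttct
Spp1, chr5:104434861-104435110, + strand: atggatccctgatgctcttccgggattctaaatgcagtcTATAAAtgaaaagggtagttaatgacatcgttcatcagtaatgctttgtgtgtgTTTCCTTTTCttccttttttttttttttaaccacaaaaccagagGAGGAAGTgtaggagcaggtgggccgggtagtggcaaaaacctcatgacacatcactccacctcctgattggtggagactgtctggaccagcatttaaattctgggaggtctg
Ddx60, chr8:61927837-61928086, + strand: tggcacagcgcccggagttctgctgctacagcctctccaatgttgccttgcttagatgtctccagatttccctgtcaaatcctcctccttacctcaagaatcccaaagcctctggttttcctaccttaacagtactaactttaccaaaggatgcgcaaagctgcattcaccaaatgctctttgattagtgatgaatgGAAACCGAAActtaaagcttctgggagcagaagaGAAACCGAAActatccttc

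Of the second-stage disease-associated list, 34 of 36 members were tested. Of these, 2 (Lilrb4a and Gpnmb) entered through the 9-month libraries alone. In the list 9 rose and 0 fell by edgeR, and in 25 each 9-month library was above each 4-month library, against 6.47% of all genes tested. The median log2 fold change was 1.47, against −0.0023 over all genes, and DESeq2 called 22 higher. Among members that missed the edgeR threshold, the chemokine Ccl6 was 314 to 447 CPM and then 774, 762 and 659 CPM (log2 0.89, SE 0.14, edgeR adjusted p = 0.077). The adhesion molecule Cadm1 was 199 to 245 CPM and then 391, 376 and 305 CPM (adjusted p = 0.133), and the surface glycopeptide Cd52 was 46.6 to 108 CPM and then 213, 185 and 190 CPM (adjusted p = 0.14). Ch25h, which makes an oxysterol, was 2.35 CPM, 0, 0 and 0.305 CPM at 4 months and 23.1, 21.6 and 31.1 CPM at 9 months (adjusted p = 0.159). Postn, a matrix protein, lay the other way, at 4.13 to 16.6 CPM and then 3.07, 1.79 and 6.68 CPM, with overlap (adjusted p = 0.449).

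The first-stage list had 10 members tested, of which Apoe and Lyz2 rose and 0 fell by edgeR. In 7 the ages did not overlap, all higher at 9 months (6.47% of all genes tested), and DESeq2 called 4 (Apoe, Tyrobp, Fth1 and Lyz2). Tyrobp, the signalling adaptor of Trem2, was 732, 716, 666 and 909 CPM and then 1255, 1175 and 1378 CPM (log2 0.76, SE 0.13, edgeR adjusted p = 0.0951). Fth1, the ferritin heavy chain that stores iron, was 949 to 1105 CPM and then 1740, 1504 and 1656 CPM (log2 0.66, SE 0.10, adjusted p = 0.0635). Both overlapped that level at 6 months, where Tyrobp was 1069 to 1379 CPM and Fth1 1354 to 1747 CPM. Trem2, named outside the rule for naming genes and after its values were seen, was 1852 to 2094 CPM at 4 months and 2262, 2267 and 2119 CPM at 9 months (log2 0.18, SE 0.09, adjusted p = 0.594).

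Of the homeostatic list, all 33 tested members missed the edgeR threshold. In 19 of them each 9-month library was below each 4-month library, against 5.63% of all genes tested, and in 0 above; the median log2 fold change was −0.35, and DESeq2 called 5 lower (Tmem119, Selplg, Rhob, Crybb1 and Ltc4s). Tmem119, a microglial membrane protein, was 6914, 6769, 8994 and 6663 CPM at 4 months and 4334, 4996 and 4902 CPM at 9 months (log2 −0.62, SE 0.13, edgeR adjusted p = 0.161). Selplg, the P-selectin ligand, was 9229 to 10932 CPM and then 7882, 7655 and 6900 CPM (adjusted p = 0.273). The fractalkine receptor Cx3cr1 was 10550, 11161, 15232 and 9853 CPM and then 8340, 9260 and 7172 CPM (adjusted p = 0.367). Csf1r, the receptor for the survival factor CSF1, was 5539, 6640, 12129 and 5082 CPM and then 4456, 5237 and 4588 CPM, with overlap (adjusted p = 0.533). Replicate 3 at 4 months was the highest library for Tmem119, Cx3cr1 and Csf1r, and with it left out 20 of the 33 members lay apart and lower (8.38% of all genes).

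The purinergic receptor P2ry12 was 16606 to 18589 CPM at 4 months and 16084, 14947 and 11473 CPM at 9 months (log2 −0.31, SE 0.12, edgeR adjusted p = 0.476). Siglech, a lectin of microglia, did not separate the ages, at 1136 to 1314 CPM and then 1321, 1297 and 1272 CPM (log2 0.06, adjusted p = 0.908). Replicate 3 at 9 months was the lowest of its group for P2ry12.

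**Figure D3:**
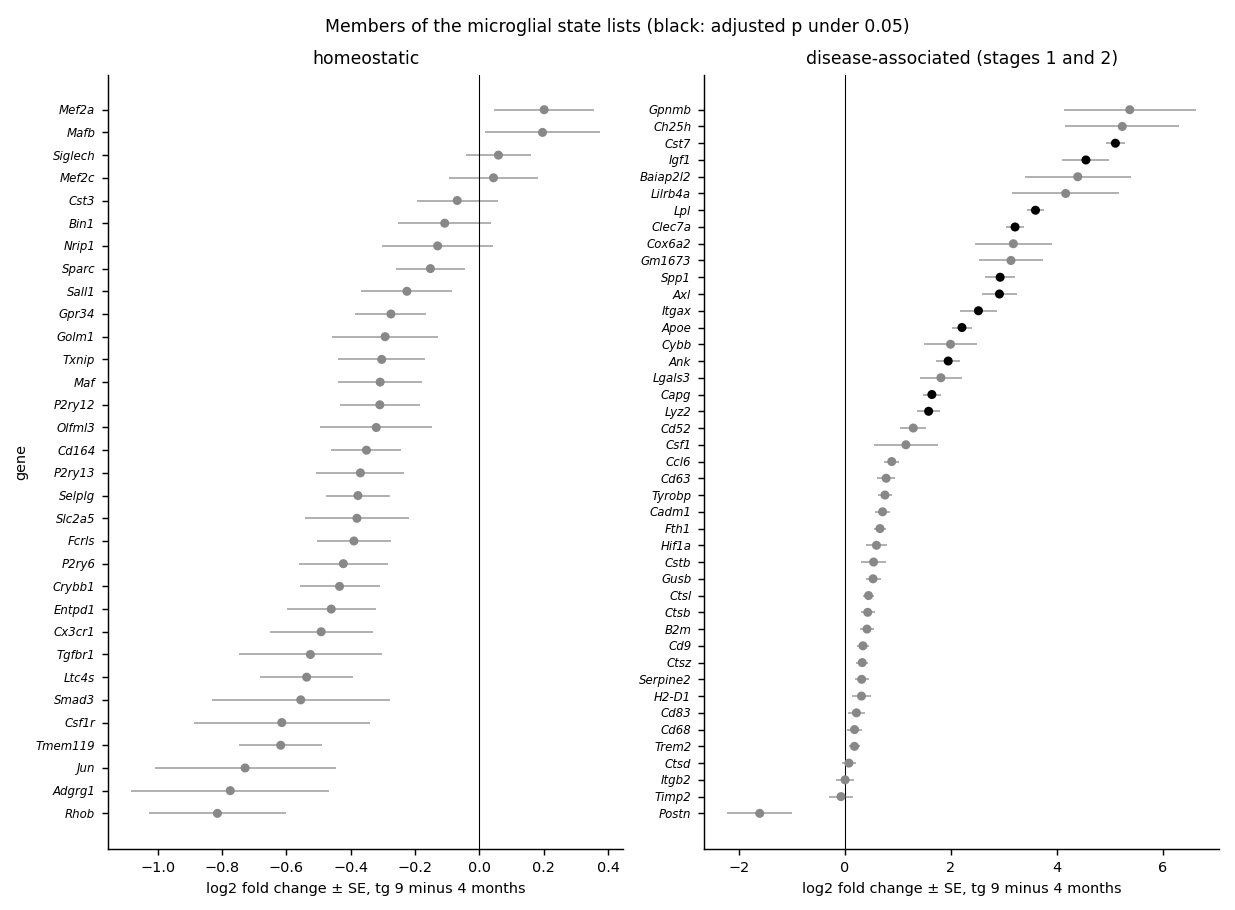
Log2 fold change with its SE for the tested members of the homeostatic list (32 of 33 shown) and of the 2 disease-associated lists (43 distinct genes). Black points passed the test: 0 homeostatic members and 11 disease-associated ones.

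Of 36 tested interferon-response genes 1 rose, Lgals3bp, and 0 fell by edgeR, while DESeq2 called 12 higher. In 19 the ages lay apart with 9 months higher (6.47% of all genes tested) and in 0 lower (5.63%), with a median log2 fold change of 1.51. Replicate 3 at 9 months was the highest library for each of the next 3 genes. Ifit2, which binds viral RNA, was 11.7 to 22.7 CPM at 4 months and 32.7, 53.0 and 116 CPM at 9 months (edgeR adjusted p = 0.149). Ifitm3, a membrane protein that hinders virus entry, was 9.31 to 11.5 CPM and then 21.7, 28.8 and 102 CPM (adjusted p = 0.168), and Oasl2 was 1.83 to 8.54 CPM and then 32.8, 22.8 and 77.6 CPM (adjusted p = 0.14). Without replicate 3 at 9 months the median of the 35 genes tested was 0.79.

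Antigen presentation and complement genes did not pass by edgeR or DESeq2. Of 15 MHC class I genes, 10 MHC class II genes and 16 complement and Fc receptor genes tested, 0 rose and 0 fell. B2m, the light chain of MHC class I, was 2271 to 2971 CPM and then 3601, 3298 and 3423 CPM (log2 0.42, SE 0.12, edgeR adjusted p = 0.318). H2-Eb1, a class II chain, overlapped, at 85.3, 22.9, 19.4 and 54.9 CPM and then 81.8, 73.2 and 104 CPM. C1qa, a chain of the first complement component, was 3232 to 3829 CPM and then 3038, 2970 and 3217 CPM (log2 −0.17, adjusted p = 0.652).

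Among lysosomal proteases and inhibitors, Cst7 rose and 18 of 19 did not pass by edgeR. Cathepsin L, Ctsl, was 865 to 1044 CPM and then 1354, 1278 and 1218 CPM (log2 0.45, SE 0.11, edgeR adjusted p = 0.214), and cathepsin B, Ctsb, was 5358 to 6607 CPM and then 9232, 8954 and 6644 CPM (adjusted p = 0.329). Of 43 lysosomal membrane proteins and hydrolases 0 passed by edgeR and 3 by DESeq2 (Cd63, Gusb and Ctns): the tetraspanin Cd63 was 109 to 166 CPM and then 237, 209 and 225 CPM (adjusted p = 0.185), and the cystine exporter Ctns was 157 to 192 CPM and then 122, 106 and 73.2 CPM (adjusted p = 0.212). Of the 43 genes 4 lay apart and higher (6.47% of all genes tested) and 8 apart and lower (5.63% of all), with a median of −0.03. Without tg at 9 months replicate 3 these were 10 and 10, where the shares over all genes also grew, to 11.1% and 9.55%.

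In lipid handling Apoe and Lpl rose and 22 of 24 genes did not pass by edgeR. Nceh1, which hydrolyses stored cholesteryl esters, was 15.6 to 23.5 CPM and then 49.7, 46.3 and 46.6 CPM (log2 1.41, SE 0.22, edgeR adjusted p = 0.0639). Hmgcs1, an early enzyme of cholesterol synthesis, was 32.3 to 41.4 CPM and then 57.3, 43.2 and 66.6 CPM (edgeR adjusted p = 0.473). Of the 22 cholesterol synthesis genes tested 0 passed by edgeR, and their median was 0.12.

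Of 22 cytokine and chemokine genes 0 passed by edgeR. Ccl3, a chemokine that draws myeloid cells, was 25.6, 27.6, 11.8 and 24.5 CPM and then 70.5, 77.1 and 67.5 CPM (log2 1.69, SE 0.29, edgeR adjusted p = 0.0891), and its neighbour Ccl4 was 14.4 to 41.2 CPM and then 65.8, 71.0 and 78.6 CPM (adjusted p = 0.215). Both were above the 4-month range at 6 months, Ccl3 at 37.7 to 74.0 CPM and Ccl4 at 49.9 to 60.0 CPM. DESeq2 called Ccl3, Ccl4 and Ccl6.

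Protein synthesis genes lay in the other direction from chaperones. Of 53 cytosolic ribosomal protein genes 0 passed by edgeR and 3 by DESeq2 (Rpl4, Rpl32 and Rps14). In this list 22 lay apart and higher (6.47% of all genes tested) and 0 lower, and the median was 0.43. Of the 53, Rps13 entered through the 9-month libraries alone and so had to differ. Rpl32 was 159 to 189 CPM and then 250, 257 and 249 CPM (edgeR adjusted p = 0.178). Of 24 genes of the unfolded protein response and chaperones 0 passed by edgeR and 3 were called lower by DESeq2 (Pdia6, Herpud1 and Dnajb1), 0 lay apart and higher and 7 lower (5.63% of all), and the median was −0.29. Pdia6, an oxidoreductase that folds proteins, was 793 to 895 CPM and then 636, 619 and 625 CPM (log2 −0.40, SE 0.10, adjusted p = 0.228), and Herpud1, which serves the removal of misfolded proteins, was 526 to 788 CPM and then 398, 474 and 400 CPM (adjusted p = 0.223). Glycolysis and respiration genes had medians of 0.10 (22 genes) and 0.02 (48 genes), and the 7 mitochondrially encoded genes tested had 0.36.

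Other lists held few genes called by edgeR. Axl and Clec7a were the 2 of 27 phagocytic receptors and bridging molecules that rose (median 0.00), Itgax the 1 of 34 galectins, tetraspanins and surface receptors (median 0.29), Igf1 and Spp1 the 2 of 26 growth factors and matrix proteins (median −0.16) and Apoe the 1 of 36 orthologues of Alzheimer risk genes (median −0.05). In those lists 0 genes fell by edgeR. DESeq2 called 4, 10, 3 and 2 genes higher in that order, and 2 lower, both among the surface receptors. Each 9-month library was above each 4-month library in 7, 11, 3 and 5 genes (6.47% of all genes tested), and below in 1, 3, 2 and 2 (5.63%). Lilrb4a (surface receptors and risk genes) and Gpnmb (growth factors) entered through the 9-month libraries alone. Cd72, an inhibitory lectin, was 11.9 to 27.6 CPM and then 86.5, 51.1 and 45.9 CPM (edgeR adjusted p = 0.178). Of 33 proliferation genes (median 0.61), 28 iron and oxidative stress genes (median −0.01), 28 myeloid transcription factors (median 0.02), 26 autophagy and lysosome regulators (median −0.01), 18 immediate early genes (median −0.09), 13 clock genes (median 0.07) and 11 TGF-beta genes (median −0.12) 0 passed by edgeR. DESeq2 called Ccnd1, Fth1, Slc40a1, Cybb, Bhlhe40, Flcn, Myc and Nrros among them. The iron exporter Slc40a1 was 631 to 712 CPM and then 512, 456 and 340 CPM (log2 −0.62, SE 0.15, adjusted p = 0.215), opposite in sign to Fth1. Bhlhe40, a transcription factor of activated microglia, was 3.10, 1.51, 0 and 2.95 CPM and then 15.2, 12.4 and 16.2 CPM (adjusted p = 0.318). Nrros, which presents TGF-beta to microglia, was 696 to 834 CPM and then 574, 533 and 547 CPM (log2 −0.49, SE 0.11, adjusted p = 0.188), and the growth regulator Myc was 59.4 to 98.8 CPM and then 46.4, 44.8 and 37.7 CPM (adjusted p = 0.21).

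**Figure D4:**
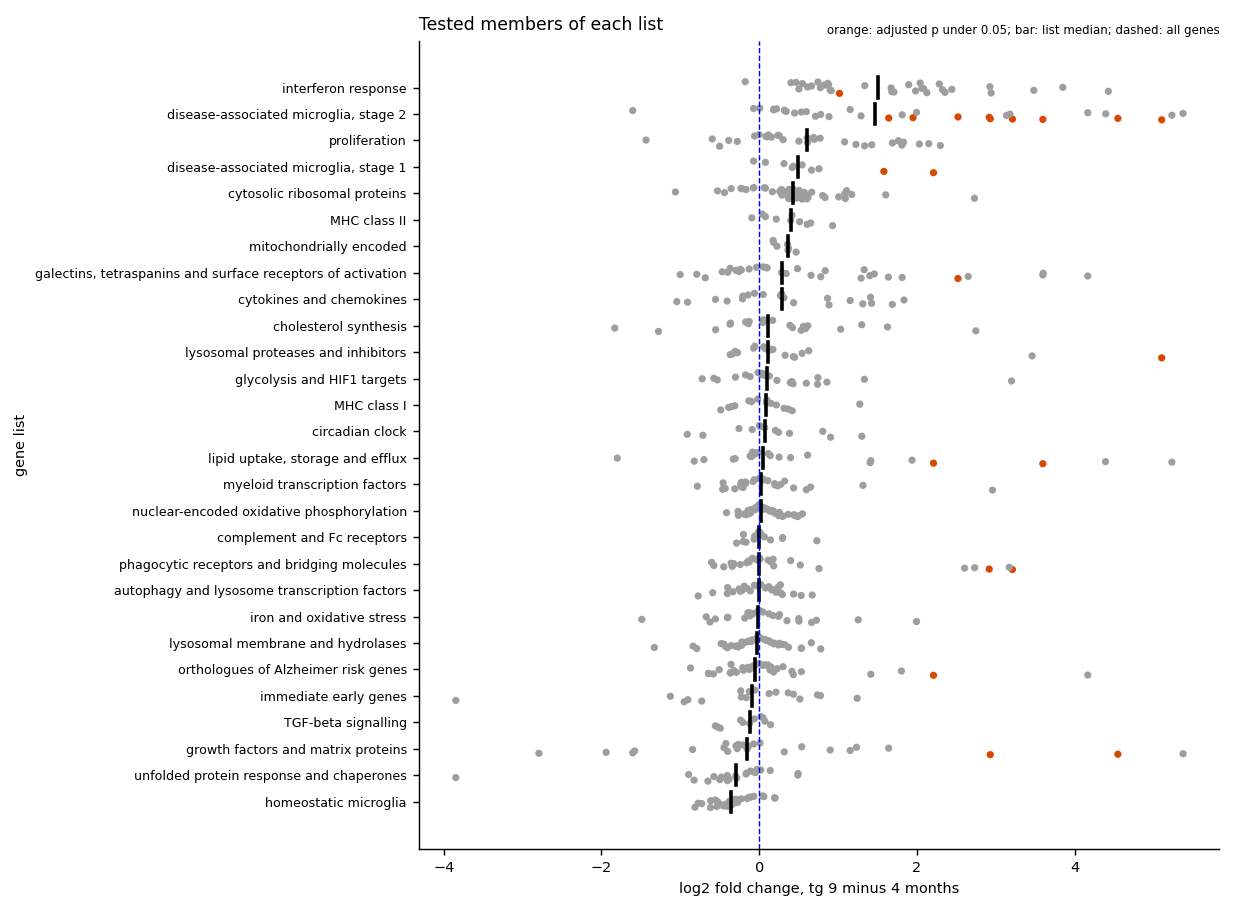
Log2 fold change (9 minus 4 months, tg) of each tested member of the microglial gene lists, ordered by the list median (bar). The dashed line is the median of all genes, −0.0023; the interferon and second-stage lists have the highest medians, 1.51 and 1.47, and the homeostatic list the lowest, −0.35.

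Since 0 genes fell at the threshold, the 15 lower genes with the smallest p are given as values that did not pass. Tmem204, a membrane protein, was 212, 175, 166 and 203 CPM at 4 months and 92.3, 107 and 94.6 CPM at 9 months (log2 −0.94, SE 0.15, edgeR adjusted p = 0.0595). Dusp6, a phosphatase that switches off ERK, was 883, 800, 778 and 722 CPM and then 421, 414 and 528 CPM (log2 −0.80, SE 0.13, adjusted p = 0.0846). Cd300a, an inhibitory receptor for phospholipids, was 255 to 320 CPM and then 169, 188 and 155 CPM (log2 −0.75, SE 0.13, adjusted p = 0.0951). The groups did not overlap for any of these 3 genes, and each was called lower by DESeq2. The others were Trim65, Rcsd1, Gpr165, Mfsd11, Gna15, Flcn, Tor1a, Hfe, Zfp719, Cd82, Tmem119 and Arhgef10l, with edgeR adjusted p of 0.126 to 0.178. Gpr165, an orphan receptor, had 132 to 212 CPM and then 32.5, 68.4 and 74.0 CPM (log2 −1.53), and Gna15, a G protein subunit, 916 to 1075 CPM and then 634, 726 and 691 CPM (log2 −0.55).

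Of the transgene constructs, App and Prnp are described; neither passed by edgeR, and DESeq2 called Prnp higher. The mouse symbol App was 112, 148, 121 and 123 CPM at 4 months and 158, 168 and 159 CPM at 9 months (log2 0.37, SE 0.14, edgeR adjusted p = 0.445). Prnp, whose promoter drives the transgenes, was 8.44 to 11.1 CPM and then 30.1, 21.9 and 20.2 CPM (log2 1.25, SE 0.28, adjusted p = 0.188). Reads of the transgenes and of the mouse genes were not told apart.

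In wt microglia the same 2 ages gave 0 called genes of 14845 by edgeR (0%, with 1144 at an unadjusted p under 0.05) and 106 by DESeq2. Of those 106, 8 were among the 20 genes called in tg. All 20 had a log2 fold change above 0 in wt as well. For 12 of the 20, replicate 1 was the highest wt library at 9 months (Igf1 20.6 CPM against 0 to 1.12 CPM). These signs therefore rest in part on 1 library, and signs without it are not given. The difference between genotypes in the change with age was likewise called for 0 of 14845 genes (0%; 639 at an unadjusted p under 0.05) and for 17 by DESeq2, of which 1, Lpl, was among the 20. The change was larger in tg for 19 of the 20 genes, with Spp1 the exception, but these genes were chosen on the tg libraries. An unadjusted edgeR p under 0.05 for the difference was found in 11 of the 20. Cxcr2, Retnlg and Gm26902 are among the 19, and Gm26902 is among the 11. These 3 entered the tg test through the 9-month libraries alone, so both counts are a description only. Lpl differed by 2.51 on the log2 scale (SE 0.60, edgeR adjusted p = 0.9999) and Apoe by 1.07 (SE 0.39, adjusted p = 0.9999). Cst7 differed by 2.08 (SE 1.1, adjusted p = 0.9999), with 11.5, 15.9 and 29.7 CPM in 3 wt libraries at 9 months and 288 CPM in replicate 1. That wt library was also the highest of its group for Clec7a, at 161 CPM against 22.9 to 43.8 CPM. With it left out the difference for Cst7 was 4.25 and passed (edgeR adjusted p = 0.0041). Leaving out the wt library with the extreme Cst7 value had to enlarge this difference, so the pass is a description only. Spp1 was 0.998 to 4.04 CPM in wt at 4 months and 29.3, 1.12, 25.2 and 22.2 CPM at 9 months, a difference between genotypes of −0.07 (SE 0.87).

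Markers of other cell types moved with age as well, and their part in the results above was not tested. Of 10 tested neutrophil markers 8 lay apart and higher (6.47% of all genes tested), but 3 of the 10 (Lcn2, Retnlg and Cxcr2) entered through the 9-month libraries alone, so the count is a description only; S100a8, a calcium-binding protein of neutrophils, was 4.69, 0, 0 and 8.53 CPM and then 89.3, 108 and 62.4 CPM (edgeR adjusted p = 0.212). The 15 markers summed to 202 to 524 CPM at 4 months and 415 to 582 CPM at 9 months, of which 72.0% was Csf3r, which microglia also express, and Elane, Mpo and Stfa1 were under the floor in all 7 libraries. The 16 monocyte markers summed to 7.39 to 15.9 CPM and then 31.0 to 47.5 CPM, with F10 and S100a4 under the floor. The 12 choroid plexus markers summed to 1235 to 1861 CPM and then 754 to 949 CPM, while the tg libraries at 6 months ranged from 200 to 1840 CPM. All 7 tested markers were below 0, and 3 lay apart and lower (5.63% of all genes tested). None of the 7 passed by edgeR, and DESeq2 called Enpp2 and Folr1 lower. Enpp2 was 680 to 896 CPM and then 499, 417 and 207 CPM (edgeR adjusted p = 0.281). Astrocyte markers summed to 472 to 577 CPM and then 462 to 506 CPM, of which 78.3% was Slc1a3, at 401 to 505 CPM and then 341, 327 and 309 CPM. Of the 13 tested 12 had a log2 fold change above 0, with a median of 1.38. In that list 5 lay apart and higher (6.47% of all genes tested) and 1 lower (5.63% of all). Gjb6 of these 13 entered through the 9-month libraries alone. Border-associated macrophage markers summed to 228 to 335 CPM and then 259 to 307 CPM, of which 61.7% was Stab1. Of the 13 tested 11 were above 0, with a median of 0.86 and 3 apart and higher (6.47% of all genes tested). Oligodendrocyte sums (4342 to 4791 CPM and 3488 to 5357 CPM) were 92.6% Trf, and 10 of 12 tested markers were above 0. Erythrocyte sums (20.9 to 34.5 CPM and 17.2 to 25.7 CPM) were 72.9% Bpgm, and 3 of the 4 markers tested entered through the 4-month libraries alone. Vascular markers summed to 130 to 279 CPM and then 104 to 128 CPM, of which 51.4% was Slc2a1; of the 9 tested 5 were above 0 and 4 below, with a median of 0.05. The sums overlapped for neurons (30.2 to 62.8 CPM and 37.8 to 43.1 CPM), T and NK cells (23.1 to 49.0 CPM and 22.1 to 41.0 CPM) and B cells (1110 to 1158 CPM and 1054 to 1158 CPM). Il7r made up 89.4% of the T and NK sum. Of its 17 markers 9 were under the floor in all 7 libraries, among them Cd3d, Cd3g and Trac. In these bulk samples a change in the number of cells of a type and a change in RNA per cell cannot be told apart.

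**Figure D5:**
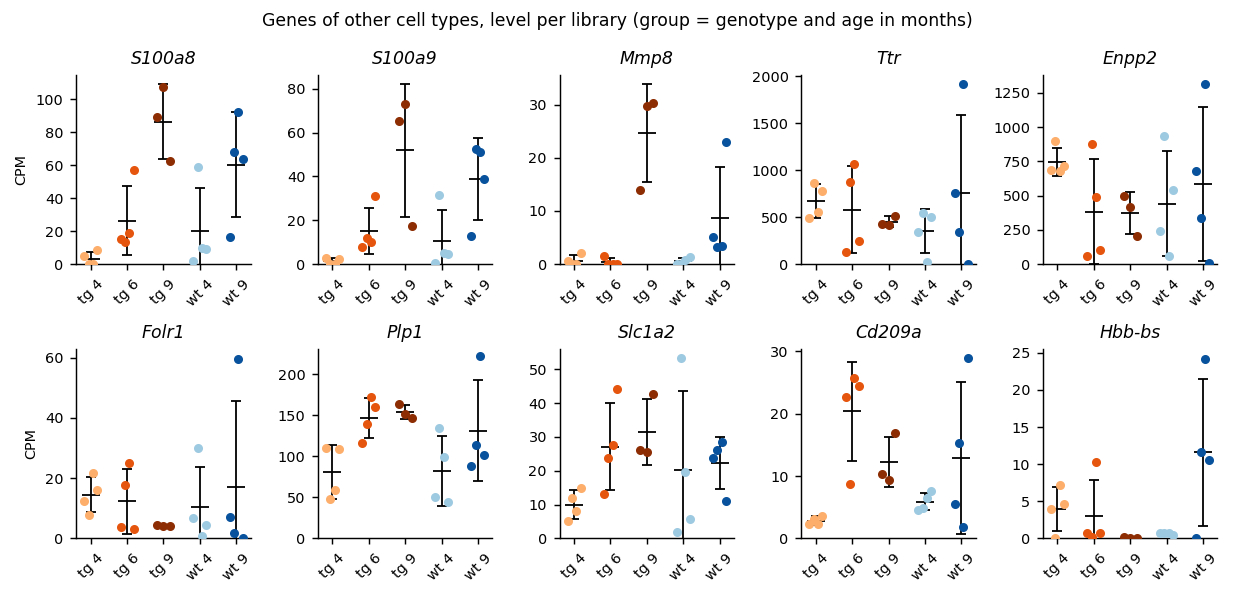
Level in CPM of 10 genes of other cell types in each library, by genotype and age in months; points are libraries and bars the mean and SD. S100a8 was above the 4-month tg libraries in each 9-month tg library, and Ttr overlapped.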

How the data were processed

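Per the labels' protocols, sorted microglia gave RNA for NEBNext low-input libraries, read on a NovaSeq6000. The deposited values are raw counts per gene. The submitters' processing notes name FastQC 0.11.9, cutadapt 2.10, TopHat, SAMtools 1.10, Picard 2.13.2, HTSeq 0.11.0 and GRCm39; strand setting, annotation and duplicate handling are not stated, so antisense and overlapping genes cannot be told apart. The series table of 36982 symbols equals the library files after genes of 1 symbol are summed; 47 symbols have several IDs.

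Counts of the 7 libraries were fitted with edgeR 4.0.16 in R 4.3.3: genes with at least 1 CPM in at least 3 libraries (13453), TMM factors, a robust quasi-likelihood fit and Benjamini-Hochberg adjustment over all genes, called at adjusted p under 0.05. The spread between libraries was a biological coefficient of variation of 45.8%. The wt change and its difference from tg came from 1 fit of 15 libraries (14845 genes, 58.1%). The SE is the log2 fold change divided by the square root of F. CPM in the text use TMM factors over 23 libraries. A level under 3 counts (0.243 to 0.322 CPM) is under the floor, which, like the intervals, covers counting error only. TMM put the median log2 fold change over all tested genes at −0.0023, and scaling by totals at 0.093. Alternatives were other factors, DESeq2 1.42.0, limma-voom (limma 3.58.1), other filters, thresholds and libraries, and a replicate block. On simulated counts the fit was tested with known changes.

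The members, gene lists and tests were chosen with earlier results of these data known. Named genes are the called ones, the 15 lower genes with the smallest p, up to 5 members of each list by p, and the construct genes; each such gene went through all alternatives, also where the text does not print it. A gene's apartness means that no library of 1 age reaches the range of the other. Promoters are from RefSeq, GRCm38.p6. Some named genes are not reported here.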

Additional observations from a re-analysis of the deposited data

Results flagged for a closer look

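A library that stood far from the other 3 of its group, by Dixon's 95% limit for 4 values, was found in 26 of 266 groups of values examined (9.77%). That limit flags about 1 group in 20 only for independent, normally distributed values. Neither was tested for these CPM, so an excess is not shown. In tg at 4 months, replicate 1, this was Sp100 at 15.8 CPM against 5.89 to 7.05 CPM, Ch25h at 2.35 CPM against 0 to 0.305 CPM and Mcm2 at 9.38 CPM against 4.13 to 4.44 CPM. In tg at 4 months, replicate 2, this was Igfbp2 at 13.6 CPM against 2.17 to 3.66 CPM and Enpp2 at 896 CPM against 680 to 715 CPM. In tg at 4 months, replicate 3, this was Tmem119 at 8994 CPM against 6663 to 6914 CPM, Cd300lb at 7.31 CPM against 2.16 to 2.95 CPM, Hmgcs1 at 32.3 CPM against 40.4 to 41.4 CPM, Fdft1 at 111 CPM against 61.1 to 64.6 CPM, Ski at 230 CPM against 142 to 152 CPM, Tgfbr2 at 689 CPM against 361 to 406 CPM, Arntl at 68.3 CPM against 12.8 to 21.8 CPM, Cd79b at 56.6 CPM against 85.6 to 87.8 CPM, Nefm at 2.87 CPM against 0.751 to 1.01 CPM and Mbp at 96.4 CPM against 31.9 to 39.5 CPM. In tg at 4 months, replicate 4, this was Cox4i1 at 237 CPM against 181 to 188 CPM and Cox8a at 104 CPM against 85.7 to 88.4 CPM. In tg at 6 months, replicate 1, this was Gm26902 at 5.38 CPM against 0 to 0.774 CPM. In tg at 6 months, replicate 3, this was Macf1 at 212 CPM against 102 to 114 CPM. In tg at 6 months, replicate 4, this was Cxcr2 at 6.52 CPM against 0 to 0.329 CPM. In wt at 4 months, replicate 1, this was Axl at 11.9 CPM against 5.08 to 5.42 CPM. In wt at 4 months, replicate 2, this was Anxa2 at 0 CPM against 1.77 to 2.09 CPM. In wt at 9 months, replicate 1, this was Cst7 at 288 CPM against 11.5 to 29.7 CPM, Igf1 at 20.6 CPM against 0 to 1.12 CPM and Clec7a at 161 CPM against 22.9 to 43.8 CPM. In wt at 9 months, replicate 2_4, this was Capg at 54.3 CPM against 66.8 to 67.4 CPM. The cause of these values was not tested. The tg libraries at 9 months are 3 and could not be examined in this way.

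The low-count library of tg at 9 months was left out of the main comparison and kept in 1 alternative. It held 674 counts of Tmem220 and 652 of Gm37621, 10.7% and 10.3% of its 6325 counts, where no other library passed 6.32 CPM and 5.62 CPM. The cause was not tested.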

How the results depend on the processing

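The 20 higher genes at 9 months became 181 with DESeq2, 39 without a filter, 8 at an adjusted p under 0.01 and 7 to 15 with 1 library left out. The 0 lower genes became 111 with DESeq2, 1 with limma-voom (Dusp6), 3 without a filter (Dusp6, Gpr165 and Tmem204), 1 in the fit of 11 tg libraries (Cd300a), 3 in that of 23 libraries (Cd300a, Cd82 and Tmem204), 1 with the low-count library kept (Slc13a4) and 0 to 1 with 1 library left out (Dusp6, without tg at 9 months replicate 3). The genotype difference in the change with age was called for 17 genes by DESeq2 and for 0 to 2 with 1 library left out: Cst7 without wt at 9 months replicate 1, and Tcaim and Camkk1 without tg at 9 months replicate 2. The wt change was called for 106 genes by DESeq2 and for 0 to 1 with 1 library left out (Atp1b2 without tg at 4 months replicate 3, Spp1 without wt at 9 months replicate 2_4). The DESeq2 counts of 17 and 106 include log2 estimates too large for the depth of these libraries. The cause was not tested.

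Replicate numbers do not pair the libraries by the labels, and deviations of same-numbered libraries correlated at 0.0225, 0.0044 and 0.0171. With the replicate block on 6 libraries 3 genes were higher (Cst7, Lpl and Clec7a), against 7 in the same 6 libraries without it, a fit added after the data were seen.

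Directions turned for some named genes that did not pass. With the low-count library kept, the log2 fold change was −0.139 for Fcer1g, −0.0397 for mt-Cytb, −0.205 for Ighm, −0.0774 for Trem2 and −0.155 for Siglech, and in the fit of 23 libraries it was −1e-04 for Ighm. With 1 library left out it ranged from −0.22 to 0.147 for Tgfbr2, −0.114 to 0.699 for Hlf, −2.19 to 0.229 for Ace, −0.116 to 0.538 for Ighd, −0.0015 to 0.0271 for Ighm, −0.478 to 0.0598 for Prox1 and −0.0733 to 0.421 for Bpgm. The genotype difference ranged from −0.468 to 0.195 for Spp1 (0.598 with limma-voom), −2.11 to 3.00 for Cxcr2 and −0.0679 to 0.437 for Macf1. The cause was not tested. With library totals in place of TMM, the medians of the phagocytic, lysosomal membrane, autophagy, Alzheimer risk, iron and immediate early lists turned from below 0 to 0.09, 0.07, 0.08, 0.05, 0.08 and 0.02, with the shift of all genes to 0.093.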
